A study of Mus musculus with 6 samples.

Results

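Levels of 8 genes of the pathway that presents peptides on MHC class II were followed through 6 bone marrow libraries. The genes are Cd74, Ciita, H2-Aa, H2-Ab1, H2-Eb1, H2-DMa, H2-DMb1 and H2-Oa, taken by symbol from the 23746 gene loci of the deposited tables, and all 8 were found in all 6 libraries. The marrow came from C57BL/6 mice aged 12 weeks with 0 intact copies of Diap1 (KO), 1 copy (Het) or 2 copies (WT). Diap1 is the older symbol of the formin mDia1, which nucleates and elongates actin filaments. Each genotype is a pool of marrow from 4 mice. Cells carrying both Gr1 and Mac1, the surface antigens of granulocytes and monocytes, were taken out on magnetic beads, and what remained was depleted to a fraction of progenitors (Lin-). Each genotype and fraction is 1 library, so the Gr1+Mac1+ and Lin- libraries of a genotype share their mice, and the spread between mice is not known. The labels do not say which part of Diap1 was deleted or in which cells.

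MHC class II molecules carry peptides from engulfed proteins to the surface, where CD4 T cells read them. They are known above all from B cells, dendritic cells and macrophages, and neutrophils are not usually counted among the main presenting cells. An alpha and a beta chain assemble in the endoplasmic reticulum around the invariant chain (Cd74), which fills the groove and steers the complex to endosomes. There proteases cut the invariant chain down to a fragment called CLIP, the DM heterodimer (H2-DMa with H2-DMb1 or H2-DMb2) exchanges CLIP for peptides, and the DO heterodimer (H2-Oa with H2-Ob) holds DM back. The genes are switched on together by the transactivator Ciita, which binds no DNA itself but is held at the promoter by RFX, CREB and NF-Y proteins sitting on the X and Y boxes. C57BL/6 mice carry the b haplotype, in which the H2-Ea alpha chain gene is not expressed, so that the product of H2-Eb1 lacks its usual partner.

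Promoters were looked up for these 8 and 4 further class II genes, and 6 are shown. The RefSeq entries (GRCm38.p6) of H2-Aa, H2-Eb1, H2-DMb1, H2-Oa, H2-Ob and H2-Eb2 start within 60 bases of the deposited locus start. They are printed because the levels of these genes were higher in the same fraction below and because the same short words recur in all 6. Each run is the 150 bases before the transcription start in the direction of the gene. Capitals mark the core of the X box, searched as CNNGNAAC with N any base, and the Y box, searched as TGATTGG. Both strands were searched, and the letters and the spacing were chosen after these promoters had been read.
H2-Aa: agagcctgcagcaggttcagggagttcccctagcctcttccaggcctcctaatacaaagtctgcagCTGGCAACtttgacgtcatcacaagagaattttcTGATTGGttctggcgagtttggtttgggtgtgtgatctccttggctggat
H2-Eb1: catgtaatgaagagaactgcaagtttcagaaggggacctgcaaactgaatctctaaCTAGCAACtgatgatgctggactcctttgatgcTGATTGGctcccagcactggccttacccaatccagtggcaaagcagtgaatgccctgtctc
H2-DMb1: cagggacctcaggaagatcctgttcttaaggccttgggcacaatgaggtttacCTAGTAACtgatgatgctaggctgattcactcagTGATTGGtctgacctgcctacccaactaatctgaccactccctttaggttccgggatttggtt
H2-Oa: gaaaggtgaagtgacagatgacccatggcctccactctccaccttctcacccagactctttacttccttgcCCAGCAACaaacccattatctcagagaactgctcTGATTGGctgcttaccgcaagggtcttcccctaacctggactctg
H2-Ob: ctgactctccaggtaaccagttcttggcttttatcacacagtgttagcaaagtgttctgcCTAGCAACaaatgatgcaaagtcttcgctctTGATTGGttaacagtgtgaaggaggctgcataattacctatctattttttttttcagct
H2-Eb2: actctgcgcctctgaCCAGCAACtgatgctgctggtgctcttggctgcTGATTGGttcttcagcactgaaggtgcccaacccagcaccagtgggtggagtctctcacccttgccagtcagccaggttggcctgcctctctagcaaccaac

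The H2-Aa run is chr17:34287824-34287973 on the minus strand, and its RefSeq start lies 52 bases from the deposited locus start. The other 5 runs are on the plus strand, at chr17:34305717-34305866 for H2-Eb1, chr17:34153041-34153190 for H2-DMb1, chr17:34092229-34092378 for H2-Oa, chr17:34238755-34238904 for H2-Ob and chr17:34325525-34325674 for H2-Eb2. In all 6 promoters the X core came first and the Y box 31 to 34 bases after it, counted from start to start, in the direction of the gene. The X core began between 79 and 135 bases before the transcription start. H2-DMb1, H2-Ob and H2-Eb2 each held 1 further X core, left in lower case since no Y box follows it at that spacing. Among 32851 mouse promoters of the same length, 21.7% held the X core on either strand, 5.71% held the Y box, and 58 promoters (0.177%) held both on 1 strand with starts 20 to 50 bases apart. The 32851 promoters include those shown here. Since the letters and the spacing were chosen from the promoters shown, these shares are no test of them. A match is a run of letters and not a measured binding site. Ciita, H2-Ab1 and H2-Ea-ps had no entry in the promoter table, the entries of H2-DMa and H2-DMb2 start elsewhere than the deposited loci, and Cd74 was not searched.

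The loci are given on mm10. Cd74 lies on chromosome 18 (60803849 to 60812652) and Ciita on chromosome 16 (10480072 to 10527564). The other 6 lie in the class II region of chromosome 17, in the order H2-Oa (34092379 to 34095234), H2-DMa (34135671 to 34138535), H2-DMb1 (34153191 to 34160229), H2-Ab1 (34263227 to 34269418), H2-Aa (34282751 to 34287771) and H2-Eb1 (34305867 to 34316674). All levels are FPKM, fragments scaled by transcript length and by sequencing depth, as the authors deposited them. Each has a 95% interval that covers counting error, and for some values more, but not the spread between mice. Implied by those intervals as if they held counting error alone, the libraries held between 8600000 and 11600000 fragments, in round figures. Diap1 stood at 4.07 FPKM in KO, 34.1 in Het and 57.1 in WT Gr1+Mac1+ cells, and at 6.07, 24.2 and 36.0 FPKM in KO, Het and WT Lin- cells, in the order of the labels. Itgam, the alpha chain of Mac1, stood at 293, 311 and 293 FPKM in KO, Het and WT Gr1+Mac1+ cells, against 1.31, 16.9 and 0.640 FPKM in Lin- cells. Kit, the stem cell factor receptor of progenitors, stood at 14.9, 15.7 and 15.0 FPKM in Gr1+Mac1+ cells, against 84.7, 66.4 and 72.6 FPKM in Lin- cells. The Lin- libraries also held erythroid and megakaryocyte transcripts, Klf1 at 110, 117 and 113 FPKM and Pf4 at 147, 308 and 232 FPKM in KO, Het and WT. By the limma comparison below, 4 of 7 erythroid markers were higher in Lin- cells and 2 lower, and all 6 megakaryocyte markers were higher. Ly6g, which the Gr1 antibody also binds, was not matched to a row. The Het Lin- library stood apart: its 9 neutrophil markers summed to 7716 FPKM, against 80.4 in KO Lin- and 66.5 in WT Lin-, so values without it, or without the Het pool, are given beside the main results below.

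All 8 genes were higher in Gr1+Mac1+ cells than in Lin- cells, in every pool. Between the means of the fractions, H2-Eb1 was higher by 19.9-fold, H2-Aa by 17.6-fold, Cd74 by 16.4-fold, Ciita by 14.2-fold and H2-Ab1 by 8.75-fold, and the DM alpha chain H2-DMa differed least of the 8, by 2.004-fold. These means include the Het Lin- library. In the KO and WT pools the log2 ratios of FPKM + 1 were 4.46 and 4.67 for H2-Eb1, and 4.21 and 4.88 for H2-Aa. They were 4.69 and 4.46 for Cd74, 3.20 and 3.22 for H2-Ab1, 1.51 and 1.80 for Ciita, and 0.84 and 1.16 for H2-DMa. The fractions were compared with limma on log2(FPKM + 1) with the pool as a block, over 11489 genes with a mean FPKM of at least 1. Over all these genes 30.4% were higher in Gr1+Mac1+ cells and 51.6% lower at a Benjamini-Hochberg adjusted p under 0.05. The 8 genes had a median log2 difference of 2.59, against a median of -0.33 over all genes tested. With each library rescaled so that this overall shift is removed, 39.5% of genes were higher and 38.6% lower, and the 8 genes were still all called higher, as they were without the Het pool. Without that pool the median log2 difference of the 8 genes was 2.71.

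The invariant chain gene Cd74 was the most abundant of the 8 in every Gr1+Mac1+ library. It stood at 322 FPKM in KO, 353 in Het and 419 in WT Gr1+Mac1+ cells, against 11.5, 36.9 and 18.1 FPKM in KO, Het and WT Lin- cells. The fractions did not overlap, the Het library was the highest of the Lin- libraries, and the WT library the highest of the Gr1+Mac1+ libraries. Its log2 difference was 4.12 (SE 0.31, limma adjusted p = 0.000325), and it was 4.69 in the KO pool, 3.22 in the Het pool and 4.46 in the WT pool. Among the 23746 loci of a library it ranked 270, 232 and 199 in KO, Het and WT Gr1+Mac1+ cells, against 5836, 2376 and 4394 in Lin- cells.

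Ciita, the transactivator, was the least abundant of the 8 in every library. Its levels were 2.14, 3.603 and 3.34 FPKM in KO, Het and WT Gr1+Mac1+ cells, against 0.0990, 0.297 and 0.242 FPKM in Lin- cells. The Lin- values rest on few fragments, an implied 4.6 in KO, 15.6 in Het and 15.1 in WT, and their order within Lin- cells cannot be told at this depth. The log2 difference between fractions was 1.72 (SE 0.12, limma adjusted p = 0.000254). On this scale the pseudocount of 1 exceeds the Lin- level of Ciita, and with a pseudocount of 0.1 the difference was 3.35.

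The classical chains form the peptide groove of I-A (H2-Aa with H2-Ab1) and the beta chain of I-E (H2-Eb1). H2-Aa stood at 113, 122 and 166 FPKM in KO, Het and WT Gr1+Mac1+ cells, against 5.13, 12.99 and 4.67 FPKM in Lin- cells. H2-Ab1, its partner, stood at 88.4, 96.9 and 118 FPKM in Gr1+Mac1+ cells, against 8.72, 14.1 and 11.8 FPKM in Lin- cells. H2-Eb1 stood at 56.2, 64.5 and 85.8 FPKM in Gr1+Mac1+ cells, against 1.60, 6.36 and 2.41 FPKM in Lin- cells. All 3 were separate between fractions, lay in the order KO, Het, WT within Gr1+Mac1+ cells, and were highest in the Het library within Lin- cells. The KO and Het intervals of H2-Aa and H2-Ab1 overlapped in Gr1+Mac1+ cells, as did the Het and WT intervals of H2-Ab1 in Lin- cells. The log2 differences were 4.08 for H2-Aa (SE 0.35, limma adjusted p = 0.000452), 3.04 for H2-Ab1 (SE 0.13, limma adjusted p = 0.000110) and 4.10 for H2-Eb1 (SE 0.33, limma adjusted p = 0.000373). The Het pool gave the smallest difference for each, and without it they were 4.55, 3.21 and 4.57.

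H2-DMa and H2-DMb1 encode the chains of the DM peptide exchanger. H2-DMa stood at 58.9, 51.4 and 55.4 FPKM in KO, Het and WT Gr1+Mac1+ cells, against 32.4, 26.1 and 24.2 FPKM in Lin- cells. H2-DMb1 stood at 24.1, 21.9 and 25.5 FPKM in Gr1+Mac1+ cells, against 4.67, 4.74 and 4.49 FPKM in Lin- cells. Neither overlapped between the fractions, but the alpha chain was the leading class II transcript of KO and WT Lin- cells while the beta chain was among the lower ones. The log2 difference was 0.99 for H2-DMa (SE 0.08, limma adjusted p = 0.000460) and 2.14 for H2-DMb1 (SE 0.08, limma adjusted p = 0.000109). Fragments of H2-DMb1 can be shared with its near copy H2-DMb2, so the beta chain values are uncertain in how they divide.

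H2-Oa, the alpha chain of the DM inhibitor DO, stood at 9.06, 10.2 and 10.9 FPKM in KO, Het and WT Gr1+Mac1+ cells, against 2.86, 2.89 and 3.22 FPKM in Lin- cells. The fractions were separate, and the genotypes within a fraction lay close together. The log2 difference was 1.47 (SE 0.08, limma adjusted p = 0.000146). The locus overlaps BC051537, which reached at most 1.05 FPKM in any library.

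**Figure D1:**
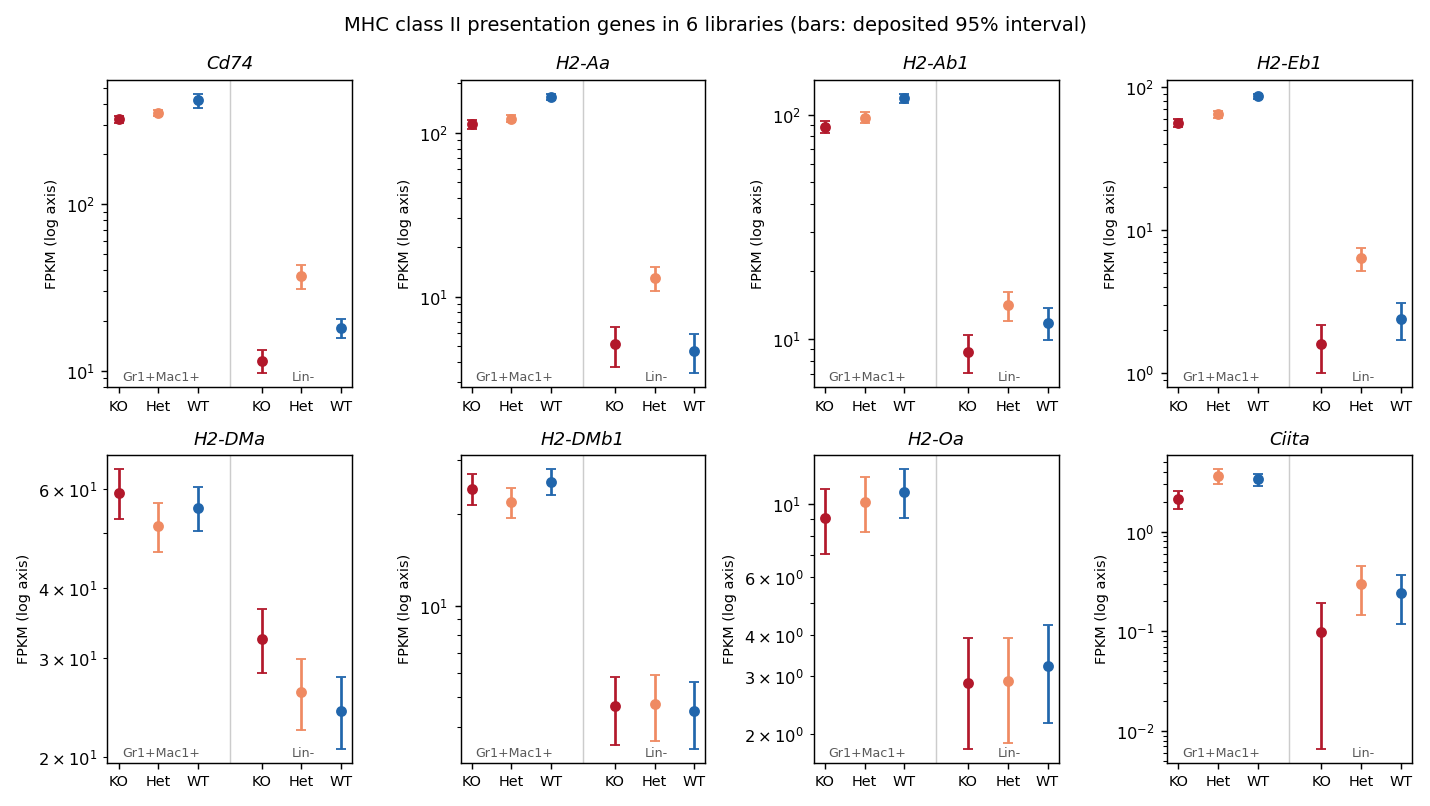
Level of each of the 8 genes (FPKM, log axis) in the 6 libraries, KO, Het and WT from left to right within Gr1+Mac1+ and then Lin- cells; points are single libraries and bars the deposited 95% interval. All 8 genes are higher in each Gr1+Mac1+ library than in each Lin- library, Cd74 at 322 to 419 FPKM against 11.5 to 36.9 FPKM, and the Het Lin- point stands above the other Lin- points for Cd74, H2-Aa and H2-Eb1.

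The 8 genes did not keep their proportions between the fractions. Cd74 made up 47.8%, 48.8% and 47.4% of their summed FPKM in KO, Het and WT Gr1+Mac1+ cells, against 17.2%, 35.4% and 26.2% in Lin- cells. H2-DMa made up 8.74%, 7.11% and 6.27% in Gr1+Mac1+ cells, against 48.4%, 25.0% and 35.0% in Lin- cells. Gr1+Mac1+ cells thus held mainly invariant chain and groove chains, and KO and WT Lin- cells held more H2-DMa than any other of the 8. The ratio of H2-Aa to H2-Ab1, the partners of I-A, was 1.28, 1.26 and 1.404 in KO, Het and WT Gr1+Mac1+ cells, against 0.588, 0.918 and 0.396 in Lin- cells. The ratio of H2-DMa to H2-DMb1 was 2.44, 2.35 and 2.17 in Gr1+Mac1+ cells, against 6.95, 5.50 and 5.39 in Lin- cells. Both ratios were separate between the fractions, and with H2-DMb2 added to the beta chain the DM ratio was 1.31, 1.11 and 1.01 in Gr1+Mac1+ cells, against 4.32, 3.05 and 3.39 in Lin- cells.

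In order of level, Gr1+Mac1+ cells ran Cd74, H2-Aa, H2-Ab1, H2-Eb1, H2-DMa, H2-DMb1, H2-Oa and Ciita in the Het and WT libraries, with no overlap between the intervals of neighbours. The KO library had H2-DMa before H2-Eb1, with overlapping intervals. KO and WT Lin- cells both ran H2-DMa, Cd74, H2-Ab1, H2-Aa, H2-DMb1, H2-Oa, H2-Eb1 and Ciita, in which H2-Aa, H2-DMb1, H2-Oa and H2-Eb1 overlapped from neighbour to neighbour, as did Cd74 and H2-Ab1 in KO. Het Lin- cells were led by Cd74, and H2-Eb1 stood before H2-DMb1 there, with overlapping intervals.

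The other class II genes were also higher in Gr1+Mac1+ cells where they could be tested. H2-DMb2, the other DM beta chain, stood at 20.7, 24.7 and 29.6 FPKM in KO, Het and WT Gr1+Mac1+ cells, against 2.84, 3.81 and 2.65 FPKM in Lin- cells, a log2 difference of 2.66 (SE 0.15, limma adjusted p = 0.000166). H2-Ob, the DO beta chain, stood at 11.8, 12.7 and 14.0 FPKM in Gr1+Mac1+ cells, against 4.58, 3.41 and 3.40 FPKM in Lin- cells, a log2 difference of 1.54 (SE 0.14, limma adjusted p = 0.000514). Both were separate between fractions. H2-Eb2, a relative of H2-Eb1, stood at 0.610, 0.670 and 1.12 FPKM in Gr1+Mac1+ cells, against 0.0254, 0.0963 and 0.0925 FPKM in Lin- cells, and its mean was too low to be tested. H2-Ea-ps, the I-E alpha chain locus, was listed at 0.456 FPKM in KO Gr1+Mac1+ cells and at 0 in the other 5 libraries.

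Genes of other function also sit among the class II genes on chromosome 17. Psmb8 and Psmb9, subunits of the immunoproteasome, had log2 differences of 1.07 and 1.03 and were called higher in Gr1+Mac1+ cells. Tap1 and Tap2, the peptide transporter of class I presentation, had 0.12 and 0.08 and were not called (limma adjusted p = 0.193 and 0.316), but were called higher after rescaling, at 0.50 and 0.46. Brd2, a bromodomain protein encoded between H2-Oa and H2-DMa, was lower, at -0.26, but lay at 0.07 relative to the median of all genes tested. Each of the 8 genes had a larger log2 difference than Tap1, Tap2 and Brd2, and H2-DMa alone stood below Psmb8 and Psmb9.

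**Figure D2:**
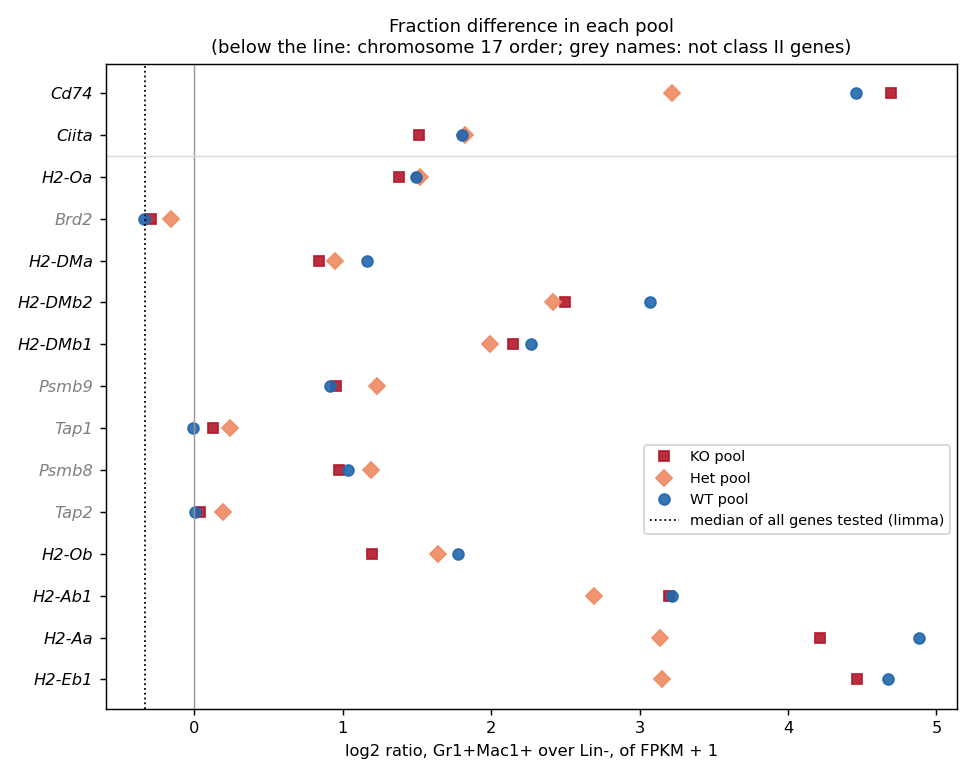
Log2 ratio of FPKM + 1, Gr1+Mac1+ over Lin-, in the KO, Het and WT pools (square, diamond, circle) for Cd74 and Ciita and, below the grey line, for genes of the class II region in chromosome order; grey names are genes of other function and the dotted line is the median of all genes tested (-0.33). The Het pool has the lowest ratio for Cd74 (3.22), H2-Aa (3.14) and H2-Eb1 (3.15), while Tap1, Tap2 and Brd2 stay near 0 in all 3 pools.

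The factors that act on class II promoters and the endosomal proteases were described as lists. Of 16 transcription and interferon response genes, 7 were higher in Gr1+Mac1+ cells, 5 lower and 4 not called, against 30.4% higher and 51.6% lower over all genes. Their median log2 difference was 0.01, against -0.33 over all genes. The higher ones were led by Sfpi1 (PU.1, a myeloid and B cell factor) at 3.96, Irf4 at 2.61 and Irf1, an interferon response factor, at 2.36. The lower ones were led by Rfxap, a subunit of RFX, at -0.70, Jak2, a kinase of the interferon gamma receptor, at -0.50 and Nfya, a subunit of NF-Y, at -0.46. After rescaling 9 were higher and 1, Rfxap, was lower, while Jak2 and Nfya were no longer called, and without the Het pool 7 were higher, 4 lower and 5 not called. Ifngr1, a chain of the interferon gamma receptor, was the most abundant of the list after Sfpi1 and was not called, at -0.04 (limma adjusted p = 0.634), but was called higher after rescaling, at 0.34. None of the 3 RFX genes and 3 NF-Y genes of the list was called higher with either scaling, unlike the 8 genes. Creb1, which encodes a CREB protein, was not called, at 0.07, but was called higher after rescaling, at 0.42.

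All 10 lysosomal processing genes were higher in Gr1+Mac1+ cells, where 30.4% of all genes tested were. Their median log2 difference was 1.31, against -0.33 over all genes. Ctsh, an aminopeptidase, was higher by 4.22, Ctss (cathepsin S, which makes the last cut of the invariant chain) by 4.07 and Lgmn, an asparagine endopeptidase, by 2.93. Ctss stood at 172, 149 and 168 FPKM in KO, Het and WT Gr1+Mac1+ cells, against 9.04, 14.5 and 4.98 FPKM in Lin- cells. The most abundant were Cst3, an inhibitor of cysteine proteases, at a log2 difference of 2.18, and Ctsd, an aspartic protease, at 0.78. All 10 were also called higher after rescaling and without the Het pool.

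Markers of several cell types moved with the class II genes between fractions. The counts below stand beside 30.4% of all genes called higher in Gr1+Mac1+ cells and 51.6% called lower. All 12 B lineage markers were higher in Gr1+Mac1+ cells, and their sum was 427, 462 and 390 FPKM in KO, Het and WT Gr1+Mac1+ cells, against 19.3, 37.5 and 21.5 FPKM in Lin- cells. Cd79a, a chain of the B cell receptor complex, stood at 96.1, 104 and 84.1 FPKM in Gr1+Mac1+ cells, against 2.23, 8.10 and 2.68 FPKM in Lin- cells. All 9 tested of 10 monocyte and macrophage markers were higher, with sums of 300.1, 298 and 280 FPKM in Gr1+Mac1+ cells, against 21.5, 33.2 and 14.1 FPKM in Lin- cells. B lineage and monocyte transcripts were therefore both present in the Gr1+Mac1+ libraries. Of 8 tested conventional dendritic markers 6 were higher and 1 lower, Zbtb46, with sums of 50.4, 43.8 and 49.2 FPKM in Gr1+Mac1+ cells, against 34.5, 28.9 and 26.4 FPKM in Lin- cells. Of 7 tested plasmacytoid dendritic markers 6 were higher, with sums of 118, 132 and 121 FPKM in Gr1+Mac1+ cells, against 57.4, 59.5 and 56.6 FPKM in Lin- cells. All 9 neutrophil markers were higher. Without the Het pool the counts of these lists were the same, except that 1 plasmacytoid dendritic marker was then called lower. Among these lists Batf3 and Klk1 were at 0 in WT Lin- cells and no marker was at 0 elsewhere. The part of each cell type in the class II levels was not tested, and in these bulk samples fewer cells of a type and less RNA per cell cannot be told apart.

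Between genotypes, the 8 genes were first compared in Gr1+Mac1+ cells by a rule of size. The rule of size asked for a 2-fold or larger difference of FPKM + 1, at least 5 FPKM in the higher library and no overlap of the deposited intervals. With 1 library per genotype there is no test. None of the 8 passed this rule in Gr1+Mac1+ cells in any comparison, where 0.0445% of genes were higher and 0.0978% lower in KO than in WT, 0.0355% higher and 0.0976% lower in Het than in WT, and 0.0622% higher and 0.0711% lower in KO than in Het. So few genes passed that this count does not set the 8 apart from other genes.

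Smaller differences lay in 1 direction for Cd74 and the classical chains, which were lowest in KO, next in Het and highest in WT. KO over WT, the log2 ratio was -0.60 for H2-Eb1 (counting SE 0.06), -0.55 for H2-Aa (0.05), -0.42 for H2-Ab1 (0.06) and -0.38 for Cd74 (0.08). Het over WT, it was -0.41 for H2-Eb1, -0.44 for H2-Aa, -0.28 for H2-Ab1 and -0.25 for Cd74. These 4 had intervals below those of WT in both comparisons, which share the WT library. Ciita had an interval below that of WT in KO only, with a log2 ratio of -0.47 (counting SE 0.13) in KO and 0.09 (0.13) in Het. So 5 of 8 lay below WT without overlap in KO and none above, against 5.55% of all genes below and 5.28% above. In Het 4 of 8 lay below and none above, against 8.45% of all genes below and 8.29% above. KO over Het, 3 of 8 lay lower without overlap (Cd74 at -0.13, Ciita at -0.55 and H2-Eb1 at -0.20), against 9.13% of all genes lower and 9.49% higher.

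The DM and DO chains among the 8 had smaller ratios to WT, with overlapping intervals. KO over WT, the log2 ratio was 0.09 for H2-DMa (counting SE 0.10), -0.08 for H2-DMb1 (0.10) and -0.24 for H2-Oa (0.18), and Het over WT it was -0.11, -0.21 and -0.09. H2-Oa also lay in the order KO, Het, WT. The median over the 8 genes was -0.40 for KO over WT, -0.23 for Het over WT and -0.13 for KO over Het, against 0.01, -0.00 and 0.00 over all genes. Of the other class II genes, H2-DMb2 and H2-Ob lay in the order KO, Het, WT as well. KO over WT, H2-DMb2 was at -0.49 (counting SE 0.15) without overlap, and H2-Ob at -0.23 (0.09) and H2-Eb2 at -0.40 (0.16) with overlap, while H2-Ea-ps was listed at 0 in WT. Of the promoter factors, Irf4 lay above WT without overlap in both, at 0.39 in KO and 0.49 in Het, and no other of the 16 did so in KO. In Het, Irf8 at 0.11 and Sfpi1 at 0.13 did so as well, and none of the 16 lay below WT without overlap in KO or Het. Of the 10 lysosomal genes, none lay below WT without overlap in KO and 2 lay above, and in Het 5 lay below and 1 above. Over all genes 5.28% lay above and 5.55% below WT without overlap in KO, and 8.29% above and 8.45% below in Het. The count of promoter factors in KO is near that share. Ctss was at 0.04 with overlap in KO and at -0.17 without overlap in Het. Whether these sizes exceed the spread between mice cannot be told from 1 library per genotype.

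**Figure D3:**
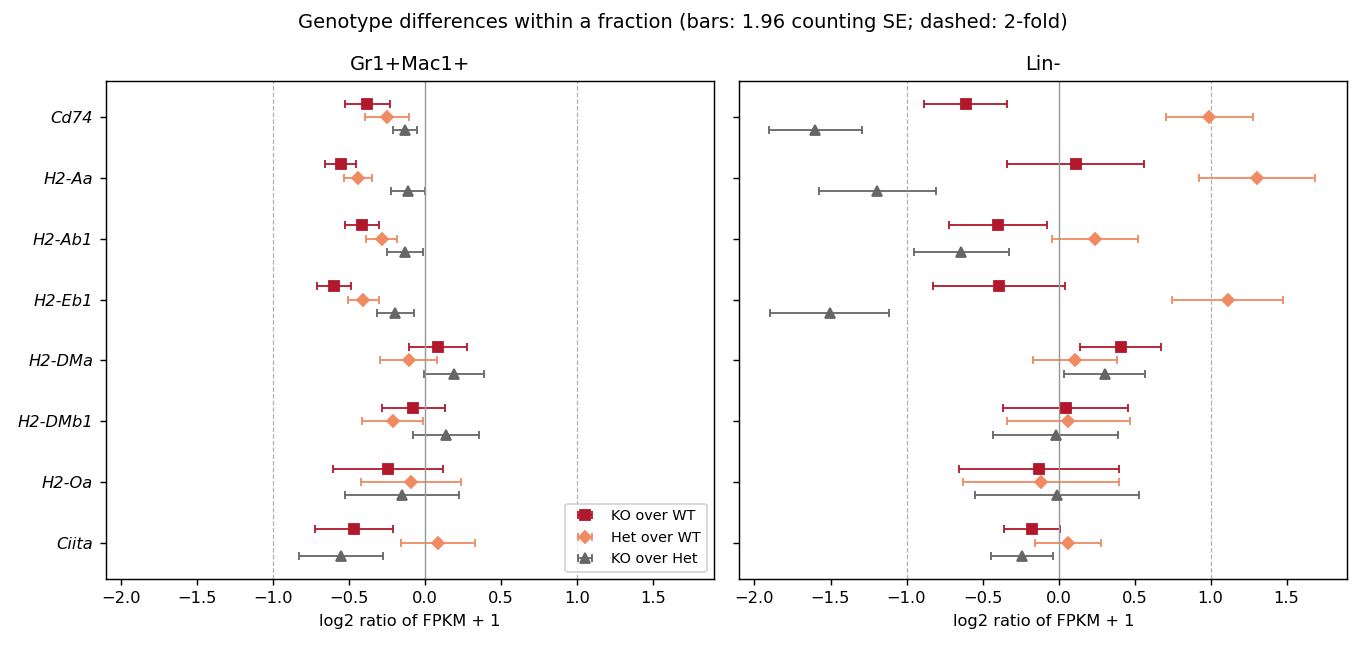
Log2 ratio of FPKM + 1 between genotypes for each of the 8 genes in Gr1+Mac1+ (left) and Lin- (right) libraries, KO over WT (square), Het over WT (diamond) and KO over Het (triangle). Bars are 95% intervals from the counting SE, and dashed lines mark 2-fold. In Gr1+Mac1+ libraries Cd74 and the 3 classical chains lie left of 0, down to -0.60, and in Lin- libraries Het over WT reaches 1.30 and KO over Het -1.60.

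Summed over the 8 genes, Gr1+Mac1+ cells held 674 FPKM in KO, 723 in Het and 885 in WT, a ratio of 0.762 for KO over WT and 0.817 for Het over WT. The summed marker lists of presenting cells did not show the same order. The B lineage sum had ratios of 1.09 for KO over WT and 1.19 for Het over WT, the monocyte and macrophage sum 1.07 and 1.07, the conventional dendritic sum 1.02 and 0.889, and the plasmacytoid dendritic sum 0.973 and 1.09. These sums were as large as or larger than in WT in 6 of the 8 ratios. The B lineage sum was led by Cd79a, Cd79b and Vpreb3. Single markers were mixed. KO over WT, 7 of 12 B lineage and 6 of 10 monocyte and macrophage markers were higher. So were 4 of 8 measured conventional dendritic and 3 of 8 plasmacytoid dendritic markers, and the others were lower. Without overlap in KO, 1 B lineage and 1 conventional dendritic marker lay below WT. Above it lay 2 B lineage and 2 monocyte and macrophage markers. Over all genes 5.55% lay below and 5.28% above. Bst2 was the largest part of the plasmacytoid sum, and Siglech lay in the order KO, Het, WT, at 12.8, 13.9 and 14.6 FPKM, with intervals overlapping those of WT. Cd22, at 9.92, 12.9 and 13.2 FPKM, Fcgr1, at 5.39, 5.48 and 6.69 FPKM, Flt3 and Pacsin1 lay in that order too. Pax5, Emr1, Mrc1 and Cd5l lay in the reverse order. The 7 erythroid markers moved with the class II genes: their sum was 273 FPKM in KO, 309.5 in Het and 446 in WT Gr1+Mac1+ cells, with ratios of 0.612 and 0.694. All 7 had intervals below those of WT in both comparisons, against 5.55% of all genes in KO and 8.45% in Het. Klf1 and Rhag, an erythroid factor and a red cell membrane protein, passed the size rule as lower in KO than in WT, where 0.0978% of all genes did. Of the markers of presenting cells only Cd5l passed there, as higher, at 12.9 FPKM in KO and 4.81 in WT. Over all genes 0.0445% passed as higher. The part of any of these cell types in the class II differences was not tested.

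**Figure D4:**
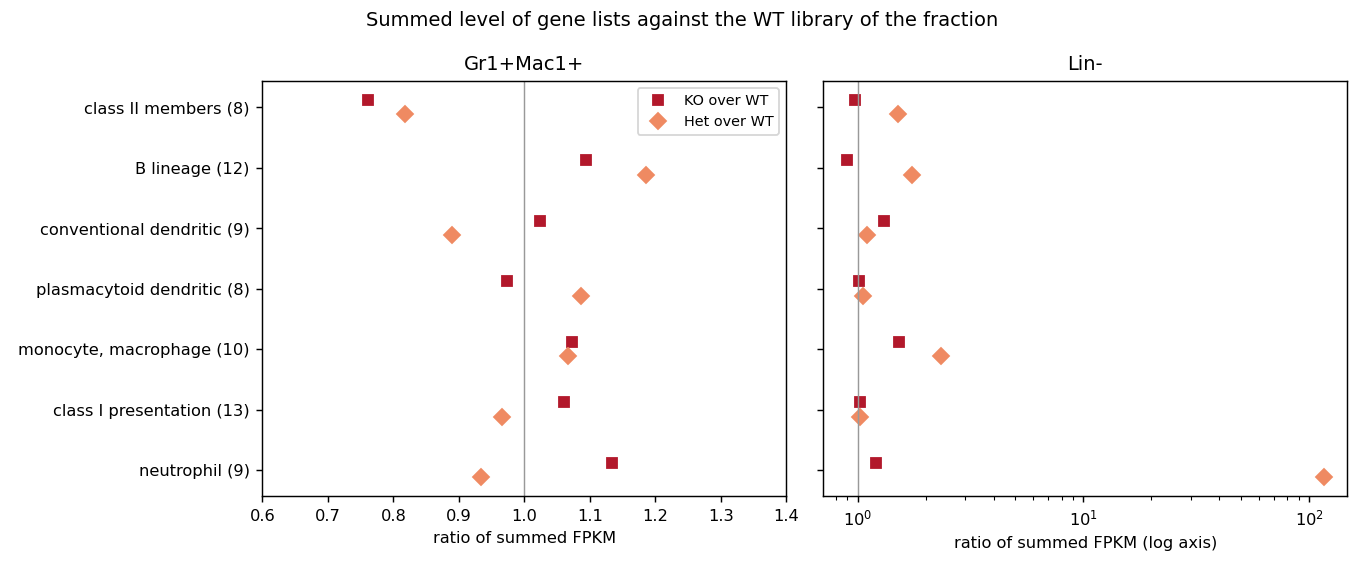
Ratio of summed FPKM to the WT library of the same fraction for the 8 class II genes and for lists of marker and class I genes (number of genes in brackets), KO over WT (square) and Het over WT (diamond); the right axis is logarithmic. In Gr1+Mac1+ libraries the class II sum is at 0.762 and 0.817 while the B lineage sum is at 1.09 and 1.19, and in Lin- libraries the neutrophil sum of Het is at 116.

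In Lin- cells the differences of the 8 genes between genotypes that passed the size rule all involved the Het library. H2-Aa and H2-Eb1 passed the size rule as higher in Het than in WT, with log2 ratios of 1.30 (counting SE 0.19) and 1.11 (0.19), where 1.29% of all genes did and 0.0638% passed as lower. Cd74 lay just under 2-fold at 0.99 (0.15). The intervals of these 3 lay above those of WT and none of the 8 lay below, against 8.59% of all genes above and 6.19% below. H2-Ab1 at 0.24, H2-DMa at 0.11, H2-DMb1 at 0.06, Ciita at 0.06 and H2-Oa at -0.11 had overlapping intervals. KO over Het, Cd74 at -1.60 (0.16), H2-Eb1 at -1.504 (0.20) and H2-Aa at -1.19 (0.20) passed as lower, where 1.16% of all genes did and 0.091% passed as higher. With H2-Ab1 at -0.64, 4 of 8 lay below Het without overlap and none above, against 7.6% of all genes below and 3.59% above. These comparisons share the Het library.

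KO over WT, which leaves the Het library out, none of the 8 passed in Lin- cells, where 0.138% of genes were higher and 0.0369% lower. Cd74, at -0.61 (counting SE 0.14), had an interval below that of WT, and H2-DMa, at 0.41 (0.14), one above it, against 7.43% of all genes lower and 6.22% higher without overlap. H2-DMa, at 32.4 FPKM in KO and 24.2 in WT, was the only one of the 8 with a higher interval in KO. H2-Ab1 at -0.40 and H2-Eb1 at -0.39 lay lower with overlapping intervals, and H2-Aa lay at 0.11.

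The Het Lin- library also held transcripts of the bead-selected fraction. Of the 9 neutrophil markers 8 passed the size rule as higher in Het than in WT Lin- cells, as did all 4 matched Gr1 and Mac1 antigen genes, 2 monocyte markers (Ccr2 and Cd68) and 1 of 12 B lineage markers (Cd79a). Over all genes 1.29% passed as higher there. The amount by which Het Lin- exceeded WT Lin- came to between 3.44% and 6.79% of the Het Gr1+Mac1+ level over the 9 neutrophil markers, with a median of 5.56%. The same share was 6.82% for H2-Aa, 6.13% for H2-Eb1, 5.34% for Cd74, 3.70% for H2-DMa, 2.41% for H2-Ab1, 1.53% for Ciita, 1.15% for H2-DMb1 and -3.17% for H2-Oa. The shares of Cd74 and H2-Eb1 lay within the range of the neutrophil markers, and H2-Aa lay just above it. H2-Ab1, Ciita, H2-DMb1 and H2-Oa lay below it. H2-DMa lay within it only through Cxcr2, at 3.44%, since the next lowest neutrophil marker, Camp, was at 5.30%. The same share taken for the KO pool was 13.97% for H2-DMa, beside a median of 0.01% over the neutrophil markers. In Het the shares ran from -8.26% to 5.20% over the B lineage markers, with a median of 2.70%. Over the monocyte and macrophage markers they ran from -3.27% to 9.30%, with a median of 4.53%. Ctsh and Ctss were the lysosomal genes that passed as higher in Het. The part of these cell types in the Het values was not tested.

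Within the 6 libraries the 8 genes followed each other. Pearson's r of each with the mean of the others, on centred log2(FPKM + 1), lay between 0.930 for H2-DMa and 0.998 for H2-Ab1. The genes outside the group whose levels were most alike over the 6 libraries were Rhof, a small GTPase, with r = 0.999, then Itfg3, Adam19, Dgkg, Rnf19b, Dhrs9, Cdkn2d and Lrrc25, all at 0.998 or above. These values mostly describe the step between fractions that the libraries share, since 660 of 4288 genes reached 0.99. They are given with no test.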

How the data were processed

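RNA of bone marrow Gr1+Mac1+ and Lin- cells was sequenced in 6 libraries, 1 for each of 6 groups. The authors deposited FPKM values per gene locus with 95% bounds and a status, per the file headers. TopHat2 2.0.7 and Cufflinks 2.0.2 were used with build mm10, per the submitters' processing notes. What each tool did and which annotation was used is not stated in the labels. FPKM is relative to the library total, of which 10 genes took 25.1% to 27.8% in Gr1+Mac1+ libraries, against 8.72% to 10.5% in Lin- libraries. The files hold no counts, so fragment numbers were implied from the width of the deposited bounds, as if it held counting error alone. For some values it held more: Cd74 in Gr1+Mac1+ cells implied 431 fragments at 419 FPKM in WT, and 2925 at 353 FPKM in Het. The intervals do not cover the spread between mice.

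Fractions were compared with limma 3.58.1 in R 4.3.3 on log2(FPKM + 1), with a variance trend and a block for the pool. Genes needed status OK and a mean FPKM of 1 or more, and p-values were Benjamini-Hochberg adjusted over all of them. The labels' protocols take both fractions from the same pooled mice, which gives the pairing. Their deviations from the fraction means correlated by -0.01 in KO, -0.06 in Het and 0.10 in WT across genes. Since each pool is a genotype, the residual spread includes any difference between genotypes in the step between fractions. A genotype difference that both fractions share is taken up by the block. The script was tested on simulated data. Genotypes were compared by size only, with a counting SE from the bounds, which shares the limit of the bounds given above. Alternatives were pseudocounts of 0.1 and 5, no filter and a stricter one, median-ratio rescaling, no block, each pool left out, no variance trend, 1.5-fold and 3-fold, and no interval criterion.

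The 8 genes and all lists were chosen with earlier results of these data known. Of each list the genes named are up to 3 with the largest called difference in each direction, those past the size rule and the 2 most abundant; all other class II genes are named, as are the 8 genes most correlated with the group among genes averaging 5 FPKM or more with a log2 range of 1 or more. Region neighbours, Creb1, marker genes, and Irf4, Irf8 and Sfpi1 between genotypes were named after their values were seen. Older symbols were matched through RefSeq synonyms, by which Spi1 is listed as Sfpi1. Tables were handled in Python 3.11.15 with pandas 2.3.3 and numpy 2.4.6, and plots were drawn with matplotlib 3.10.9.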

Additional observations from a re-analysis of the deposited data

How the results depend on the processing

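All 8 genes remained called higher in Gr1+Mac1+ than in Lin- cells in every setting in which they were tested, and no called result changed sign. A mean FPKM of at least 5 leaves Ciita untested, so 7 genes were called there. Their median log2 difference, 2.59, was 3.24 with a pseudocount of 0.1, 2.13 with 5, 3.04 with the stricter level filter and 2.95 after rescaling. It lay between 2.51 and 2.71 with 1 pool left out, and it was 2.59 with no replicate block, which changed no call of the 8. Over all genes 3491 were higher with the block and 3530 with no replicate block, and between 3116 and 3345 with 1 pool left out. At 1.5-fold in place of 2-fold, 1 gene was lower in KO than in WT in Gr1+Mac1+ cells (H2-Eb1) and 1 in Lin- cells (Cd74). The 2 genes higher in Het than in WT Lin- cells became 0 with a pseudocount of 5 and 0 at 3-fold. The 3 genes lower in KO than in Het Lin- cells became 1 with a pseudocount of 5 and 1 at 3-fold, and their median over the 8 genes, -0.44, became -0.84 with a pseudocount of 0.1. The pseudocount weighs most on Ciita and H2-Eb1 in Lin- cells, whose levels are near it. No p-value between genotypes was possible with 1 library each, and at the Lin- depth of Ciita a difference between genotypes was not detectable.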

Other observations

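The genes that present peptides on MHC class I were more even between the fractions than the class II genes. Of 13 genes, 7 were higher in Gr1+Mac1+ cells, 1 lower and 5 not called, with a median log2 difference of 0.34 (limma, as above). Over all genes tested 30.4% were higher and 51.6% lower, with a median of -0.33. B2m, the light chain of class I, stood at 1139, 999.8 and 1058 FPKM in KO, Het and WT Gr1+Mac1+ cells, against 789, 757 and 675 FPKM in Lin- cells, a log2 difference of 0.53 (SE 0.08, limma adjusted p = 0.00363). H2-D1, a heavy chain, had the highest difference of the list at 1.398, and its fragments can be shared with other class I genes. Erap1, a peptide trimming enzyme, was lower, at -0.36. After rescaling 9 of the 13 were higher and none lower, and Erap1 lay at 0.01. Without the Het pool 6 were higher, 2 lower and 5 not called. In Gr1+Mac1+ cells the class I sum had ratios of 1.06 for KO over WT and 0.966 for Het over WT, beside 0.762 and 0.817 for the 8 class II genes.

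Of 7 genes for surface turnover and costimulation, 6 were higher in Gr1+Mac1+ cells and 1 was lower, against 30.4% and 51.6% of all genes. March1 and March8 encode ubiquitin ligases known to take class II molecules off the surface, and they differed in opposite directions. March1 stood at 12.4, 11.3 and 13.7 FPKM in KO, Het and WT Gr1+Mac1+ cells, against 0.345, 0.695 and 0.256 FPKM in Lin- cells, a log2 difference of 3.24 (SE 0.16, limma adjusted p = 0.000127). March8 stood at 11.3, 11.4 and 13.7 FPKM in Gr1+Mac1+ cells, against 24.8, 23.8 and 23.1 FPKM in Lin- cells, a log2 difference of -0.93 (SE 0.09, limma adjusted p = 0.000776). Both calls held after rescaling and without the Het pool. Icosl and Cd40, a costimulatory ligand and a receptor for T cell help, were higher by 3.15 and 2.32. In Gr1+Mac1+ cells 2 of the 7 lay below WT without overlap in KO, Icosl at -0.30 and March8 at -0.25. In Het 3 of the 7 did so, Icosl at -0.29, March1 at -0.26 and March8 at -0.24. None lay above WT without overlap in either. Over all genes 5.55% lay below and 5.28% above in KO, and 8.45% below and 8.29% above in Het.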
